A study of Mus musculus with 12 samples.

Results

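The 1358 autosomal regions described here carried an ATAC-seq peak in resting mouse macrophages and lost it within 6 h of lipopolysaccharide (LPS). They were chosen by their calls: peaks from 12 libraries were pooled, peaks that overlapped by at least 1 bp were chained into regions, and a region was kept if at least 3 of 4 libraries at 0 h and at most 1 of 4 at 6 h called it. The pool held 115231 regions, 112047 of them on the 19 autosomes, so closed regions made up 1.21% of the autosomal regions. Of the 54094 autosomal regions with 3 or 4 calls at 0 h, 2.51% were closed. Under the mirrored rule 15759 regions (14.1%) opened by 6 h, and 51301 regions had 3 or 4 calls at both times and are called retained. Outside the rule, the X chromosome held 35 closed and 467 opened regions. The 0 h and 6 h calls chose these regions, so changes between those times are a description and carry no test. The 2 h libraries and the genotype labels did not enter the rule.

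The study asked how loss of lincRNA-EPS, a long non-coding RNA, bears on chromatin accessibility in macrophages answering LPS. Mice were C57BL/6 females, either lincRNA-EPS knockout (KO) or wild type (WT), and their bone marrow was kept for 9 days with an L929 supplement at 20% to give macrophages. These received 100 ng/ml LPS for 0, 2 or 6 h, and 50000 cells per library went into the transposition. Each of the 6 groups (2 genotypes, 3 times) had 2 libraries. The labels do not say whether these came from separate animals or cultures, so any p-value below measures the spread between libraries, which may be technical. The names of peaks in the 2 h lists read 1 h, while the labels give 2 h, and the labels were followed. Macrophage markers and the knocked-out locus were not checked, because mm9 gene annotation was not used here, and positions are therefore given without genes.

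ATAC-seq reads open chromatin through a transposase that inserts adapters where DNA is not wrapped or covered, so a peak marks a promoter, enhancer or other accessible element. LPS is sensed by Toll-like receptor 4, which activates NF-kB, AP-1 and interferon-regulatory factors and opens many enhancers in macrophages. Genes of the resting state are also shut down in this response, and elements held by factors of the resting macrophage can lose accessibility. In bulk cells, fewer cells with an open element and less opening per cell cannot be told apart.

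Few regions went from every library to none. Of the 1358 regions, 141 (0.126% of autosomal regions) went from 4 of 4 calls at 0 h to 0 of 4 at 6 h. A further 269 went from 4 calls to 1, 388 from 3 to 0 and 560 from 3 to 1. Just outside the rule lay 1058 regions with 2 calls at 0 h and 1 at 6 h, and 870 with 3 calls and 2. Peak strength was expressed as the percentile of a peak's −log10 q within its own library's list, where 100 is the strongest. The 560 regions just inside had a median 0 h percentile of 18.6, against 14.4 and 20.3 in the 2 sets just outside. Their median fold of the summit over local background was 4.83, against 4.63 and 4.95. The members at the threshold were thus close in strength to the regions left out.

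**Figure D1:**
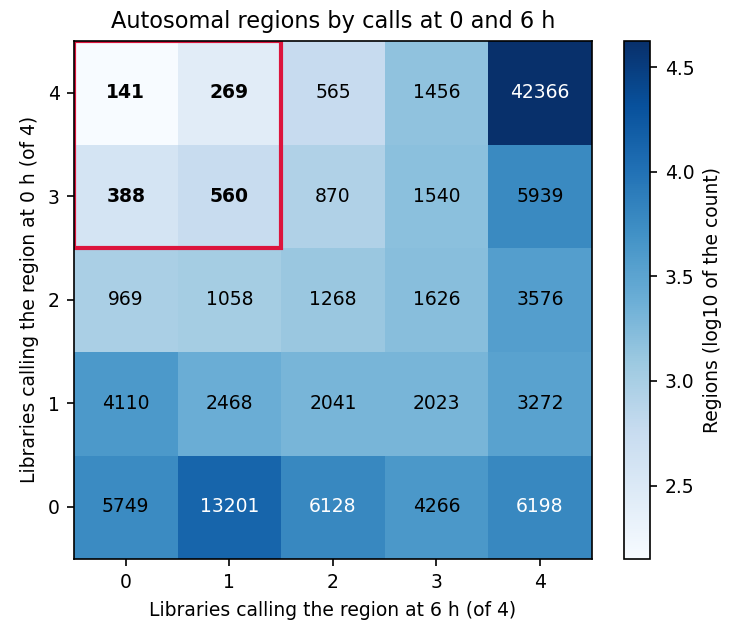
Number of autosomal regions for each combination of calls at 0 h and calls at 6 h (0 to 4 libraries each). The closed regions are the combinations with 3 or 4 calls at 0 h and 0 or 1 at 6 h: 141, 269, 388 and 560 regions.

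Libraries contributed unequally. At 0 h, WT replicates 1 and 2 called 1256 and 1243 of the closed regions, KO replicate 1 called 1204 and KO replicate 2 called 781. Regions that missed exactly 1 library at 0 h numbered 948. KO replicate 2 was the missing one for 577 of them (60.9%), and the others for 102 (WT replicate 1), 115 (WT replicate 2) and 154 (KO replicate 1). At 6 h, WT replicates 1 and 2 called 135 and 182 closed regions, and KO replicates 1 and 2 called 401 and 111. Of the 829 regions with 1 call at 6 h, 401 (48.4%) had it in KO replicate 1. These 2 libraries also lay at the ends of the depth range. The lowest local background recovered from the peaks, which rises with sequencing depth, was 1.43 reads in KO 0 h replicate 2 and 3.35 in KO 6 h replicate 1, and 1.77 to 3.04 in the other 10 libraries. The same 2 libraries had the fewest and the most peaks, 54771 and 91610. Leaving out a 0 h library meant that all 3 remaining ones had to call a region. This gave 512 closed regions without replicate 1 of WT, 525 without replicate 2 of WT, 564 without replicate 1 of KO and 987 without replicate 2 of KO. Without WT 6 h replicate 2 or KO 6 h replicate 1 the count was 2091 and 2508, and without KO 6 h replicate 1 the opened regions fell to 10007. Leaving out both extreme libraries together gave 1863 closed and 10804 opened regions.

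Depth differed between the times as well, with a lowest background of 2.01 ± 0.504 reads at 0 h, 2.80 ± 0.339 at 2 h and 2.59 ± 0.553 at 6 h (SD, n = 4). Each library was thinned to the depth of the shallowest by a random draw on the summit reads of its called peaks. Peaks with a −log10 p of at least 4.28 were then kept in every list, and peaks that had not been called could not return. The thinned counts thus do not reflect depth alone. After thinning, 1875 regions were closed and 12936 opened, and 1056 (77.8%) of the deposited-list members overlapped a closed region of the thinned lists. Cutting every list to its 54771 strongest peaks gave 4614 closed and 6028 opened regions, and 543 (40.0%) of the members overlapped these. Closed regions were thus 7.93% of all changed regions in the deposited lists, 12.7% after thinning and 43.4% at equal list length. The cut to equal length sets its share in part, since each peak that enters a list of fixed length displaces another. The balance of closing against opening therefore turned on how lists of unequal length were treated.

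Closed regions were weak at 0 h. The median 0 h percentile was 20.8 (quartiles 14.4 and 27.7), and only 16 regions (1.18%) lay above the 50th percentile, against 57.5% of the retained regions. The median fold was 4.88 (quartiles 4.21 and 5.52, maximum 9.11), against 7.18 in retained regions. Weakness was shared by opened regions at 6 h, when they were called. Their median percentile was 27.8 and their median fold 5.06, and 14.3% lay above the 50th percentile. Regions chained over all 12 libraries had a median width of 429 bp when closed (quartiles 379 and 517, maximum 1274), 449 bp when opened and 721 bp when retained. That width went with the number of calling libraries, from 374 bp in closed regions with no 2 h call to 467 bp in those with 4, and the rule bounds that number. The fold at which a peak could still be called over the lowest background was 2.97 to 3.71 across the 12 libraries. Of the 955 closed regions lying on low local background, 473 (49.5%) had a mean 0 h fold over 1.5 times the highest such limit at 6 h, and 45 (4.71%) over 2 times. Of these 45 strongest cases, 37 had a peak in each 2 h library, and 14 had none at 6 h. For the other regions a peak missing at 6 h places only a loose bound on the loss. In the 829 regions with 1 call at 6 h, coverage at the summit relative to always-open regions was a median of 0.774 times that at 0 h (quartiles 0.662 and 0.904), and it was below 1 in 722 (87.1%). The rule used the calls of both times and so favours a ratio below 1, and no ratio of retained regions stands beside it. In 401 of the 829 (48.4%) the 6 h value came from KO replicate 1, the library with the most peaks.

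Most closed regions were still called at 2 h. The 4 libraries at 2 h called 83.7% and 68.1% (WT) and 71.1% and 77.3% (KO) of them, a mean of 75.1% ± 6.89 (SD, n = 4). The mean was 82.5% ± 16.8 at 0 h and 15.3% ± 9.76 at 6 h, values that the rule fixed in part. In the same 4 libraries, 28.4% to 37.2% of opened regions and 97.4% to 98.9% of retained regions were called. Closed regions therefore lay between opened and retained regions in each 2 h library, with no overlap of the ranges. Of all autosomal regions, the same libraries called 65.3% and 59.0% (WT) and 60.9% and 62.6% (KO).

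**Figure D2:**
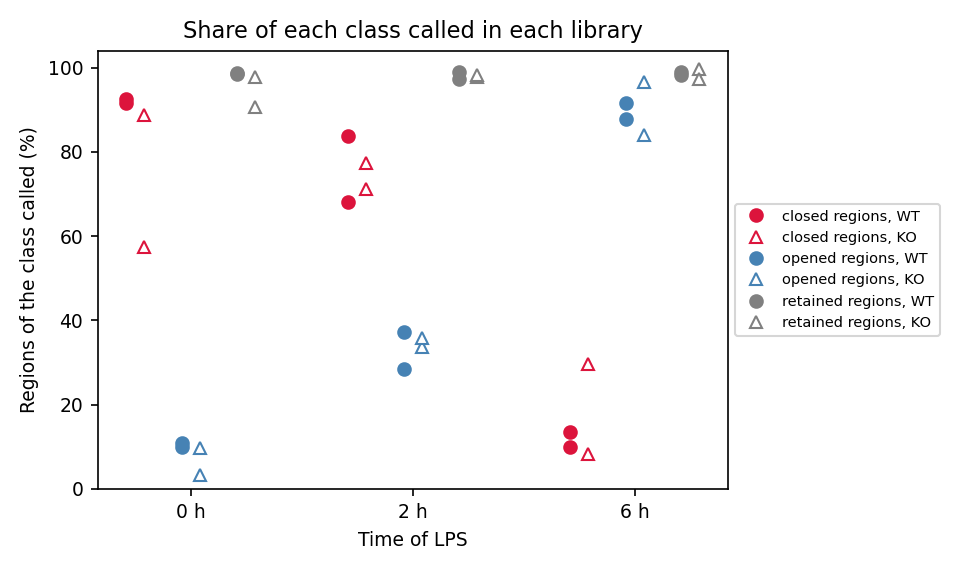
Percent of closed, opened and retained regions called in each of the 12 libraries, ordered by time and genotype. Closed regions were called at 68.1% to 83.7% at 2 h and at 8.17% to 29.5% at 6 h, and KO 0 h replicate 2 (57.5%) sat below the other 0 h libraries.

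By number of 2 h libraries, 601 closed regions (44.3%) were called in all 4, 368 (27.1%) in 3, 227 (16.7%) in 2, 115 (8.47%) in 1 and 47 (3.46%) in none. Among opened regions, 6528 (41.4%) were called in none and 1849 (11.7%) in all 4. A rule of at least 3 calls at 0 h and at most 1 at 2 h was met by 460 autosomal regions (0.411%), and 162 closed regions (11.9%) met it. The 2 rules share the 0 h libraries, so nothing is read from that share. The number of 2 h calls went with strength, the median 0 h percentile being 12.7 with no call at 2 h, 15.5, 17.4 and 19.8 with 1, 2 and 3 calls, and 25.2 with 4.

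At like mean percentile at 0 h, closed regions were called less at 2 h than retained regions. That mean covered only the 0 h libraries that called the region, so a missing call did not lower it. Among closed regions, 948 (69.8%) had only 3 calls at 0 h. Among 51301 retained regions, 1540 with 3 calls at 6 h and 5939 with 4 had only 3 calls at 0 h. The bins thus match the classes in strength only in part. In the 10th to 20th percentile, 62.1% of 504 closed and 87.1% of 3260 retained regions were called in 3 or 4 libraries at 2 h. In the 20th to 30th percentile the shares were 77.0% of 448 and 95.8% of 5753, and in the 30th to 50th 91.3% of 253 and 99.6% of 12272. Below the 10th percentile they were 46.7% of 137 and 79.1% of 494, while all regions above the 50th were called in both classes. Retained regions were chosen for calls at 6 h and closed regions against them, and regions are not replicates, so these shares are given without a test.

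**Figure D3:**
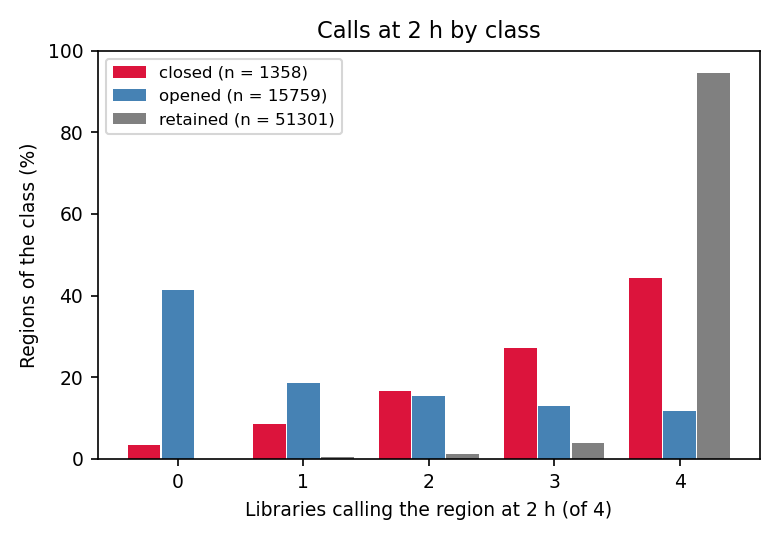
Percent of closed, opened and retained regions by the number of 2 h libraries (of 4) that called them. Closed regions were called in all 4 libraries in 44.3% of cases, opened regions in 11.7% and retained regions in 94.5%.

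A subset of 287 closed regions had calls in all 8 libraries of 0 h and 2 h, so that their levels could be set side by side. Their median summit coverage, as a percent of the median of always-open regions in the same library, was 52.0, 52.0, 50 and 54.5 in the 0 h libraries and 48.5, 49.1, 50 and 50 in the 2 h libraries. The ranges touched at 50. The median ratio of 2 h to 0 h coverage was 0.937 (quartiles 0.856 and 1.02), and 68.6% of the regions were below 1. Among 42977 retained regions with calls in the same 8 libraries the ratio was 0.971 (quartiles 0.906 and 1.06), with 60% below 1. These were stronger, with a median coverage of 97.0% to 98.5% per library. All 2 h values lay below all 0 h values in 5.23% of the 287 and 5.61% of the retained regions. The reverse held in 1.39% and 3.53%. The median fold of the 287 was 4.77 to 5.08 in the 0 h libraries and 4.74 to 5.11 in the 2 h libraries. These 287 are regions that passed calling at both times, so the ratio does not speak for all 1358.

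At 2 h, which the rule did not use, the 2 WT libraries called 1136 and 925 closed regions and the 2 KO libraries 966 and 1050, so the genotypes overlapped. The means were 1030.5 ± 149 (WT) and 1008 ± 59.4 (KO; SD, n = 2), a difference of -22.5, and 2 libraries against 2 were not tested. Over all 12 libraries, the mean difference in closed regions called, KO minus WT within times, was -60.7 per library (exact permutation test within times over 216 arrangements, two-sided p = 0.593; the smallest possible was 0.00926). The rule counted the 4 libraries of a time alike, without their genotype, but it bounded the 0 h and 6 h calls: no member could lack both libraries of a genotype at 0 h or have both at 6 h. The 0 h and 6 h values in this test are also the calls that chose the regions. The p-value therefore does not show that the genotypes act alike, and no conclusion about genotype is drawn from it. The group means were 1249.5 ± 9.19 (WT) and 992.5 ± 299 (KO) at 0 h, and 158.5 ± 33.2 and 256 ± 205 at 6 h (SD, n = 2). The sign of the difference turned without WT 0 h replicate 1 (28.0), WT 0 h replicate 2 (25.4), WT 2 h replicate 1 (3.97), KO 6 h replicate 1 (9.57) or KO 6 h replicate 2 (67.6). The alternatives chose other regions, with the same bounds on their 0 h and 6 h calls. At equal list length the difference was -142 over 4614 closed regions (exact permutation p = 0.00926, the smallest the design allows), a set that 543 of the 1358 members overlapped. In thinned lists it was -118 over 1875 regions (exact permutation p = 0.148). Both p-values include the 0 h and 6 h calls that chose the regions, so no genotype effect is read from them. At 2 h alone the differences were -173 at equal length and -144 after thinning, and these were not tested. As a percent of the closed regions of each setting, the differences over all times were -4.47 in the deposited lists, -3.08 at equal length and -6.32 after thinning. At 2 h, 41 closed regions (3.02%) were called in both WT and no KO library, against 1.34% of all autosomal regions, and 21 (1.55%) in both KO and no WT library, against 1.22%.

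Choosing closed regions in one genotype and scoring them in the other gave values that the choice had not used. In KO, 557 regions (0.497%) went from 2 of 2 calls at 0 h to 0 of 2 at 6 h. WT libraries called 67.1% and 65.5% of these at 0 h, 79.9% and 66.6% at 2 h and 28.0% and 31.1% at 6 h. All 47284 regions called in both KO libraries at 0 h were called by WT at 96.9% and 96.7% at 0 h and 96.3% and 96.9% at 6 h. In WT, 1654 regions (1.48%) met the same rule, and KO libraries called 57.7% and 32.6% of them at 0 h, 65.2% and 70.0% at 2 h, and then 48.4% and 24.9% at 6 h. All 54918 regions called in both WT libraries at 0 h were called by KO at 92.4% and 84.2% at 0 h and 96.7% and 92% at 6 h. These 2 comparison sets, of 47284 and 54918 regions, were not matched to the closed regions in strength. For closed regions in the deposited lists, the KO values of 0 h and 6 h overlapped, whereas the WT values did not. The 6 h minus 0 h difference was -36.8 percentage points for regions chosen in KO and -8.5 for regions chosen in WT. In thinned lists the differences were -28.4 and -19.4. There KO called the regions chosen in WT at 62.4% and 41.1% at 0 h and 37.3% and 27.5% at 6 h, without overlap. The WT values did not overlap there either. With 2 libraries against 2, an exact permutation test cannot go below a two-sided p of 0.333, and over both genotypes together not below 0.0556, so no test was made. The KO and WT lists shared 141 regions, 25.3% of the KO list and 8.52% of the WT list.

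**Figure D4:**
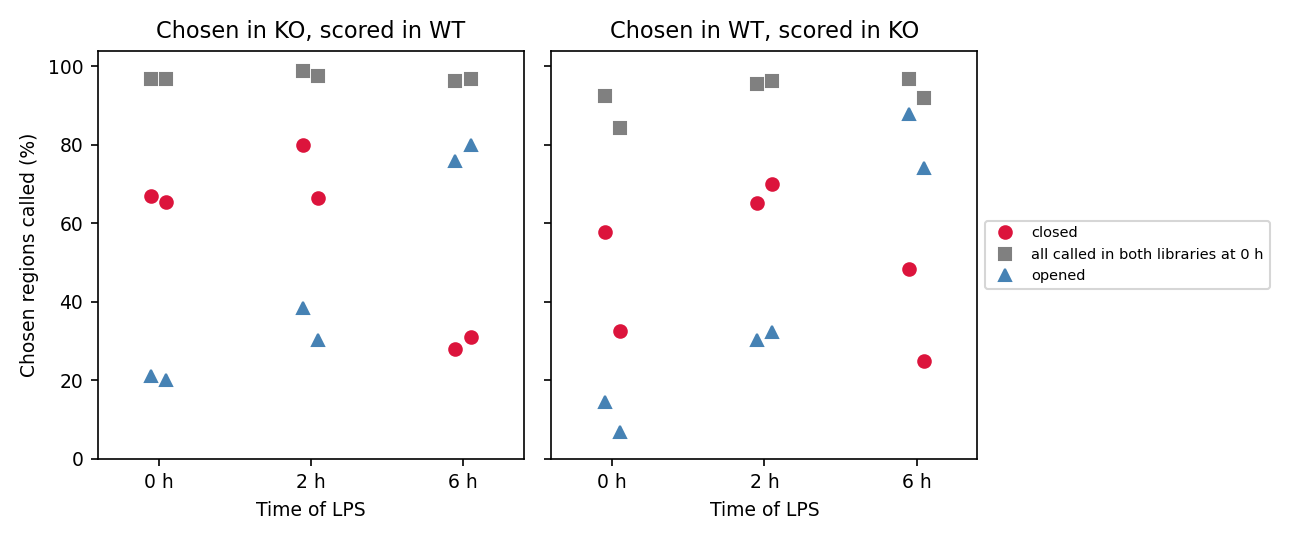
Percent of regions called in each library of the genotype not used to choose them, by time, for closed regions, opened regions and all regions called at 0 h in the choosing genotype. Regions chosen in KO went from 67.1% and 65.5% at 0 h to 28.0% and 31.1% at 6 h in WT. The KO values of regions chosen in WT overlapped between 0 h and 6 h in these deposited lists, which they did not after thinning.

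The strongest closed regions mostly lay on raised local background. Of the 10 with the highest mean 0 h percentile, 8 had a local background 2.97 to 5.79 times the library's lowest, and 1 of the 10 was called in no library at 6 h. Leading was chr2:6628330-6628851 (522 bp, mm9), at a percentile of 65.4 ± 13.5 (SD, n = 4). Its fold was 7.28 and 8.11 in WT and 7.23 and 5.84 in KO at 0 h. At 2 h it was 8.14 and 5.87 in WT and 7.09 and 6.68 in KO, and at 6 h KO replicate 1 called it at 4.77. The 0 h and 2 h values overlapped. The region chr13:117817017-117817515 had a fold of 5.45 and 4.96 in WT and 5.28 and 4.92 in KO at 0 h, 3.78 and 3.43 in WT and 4.99 and 3.83 in KO at 2 h, and 2.38 in KO replicate 1 at 6 h. Its local background was 5.74 times the lowest, so that a fold of this size rested on 50 to 77 reads at the summit at 0 h. Across all closed regions, 403 (29.7%) had a local background over 2 times the lowest, against 50.4% of retained and 25.3% of opened regions. Without such regions 955 were closed and 11765 opened. These 403 were called in all 4 libraries at 2 h in 57.8% of cases, against 38.5% of the other 955, and their median fold was 3.8 against 5.18.

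On low background the clearest loss was at chr4:19765147-19765830 (684 bp), called in all 8 libraries of 0 h and 2 h and in none at 6 h. The fold was 8.05 and 7.70 in WT and 10.5 and 10 in KO at 0 h. At 2 h it was 5.95 and 6.33 in WT and 8.94 and 9.03 in KO. Each KO value was above both WT values of the same time. Its summit coverage relative to always-open regions was 52.0% and 52.0% in WT and 83.3% and 97% in KO at 0 h, and 34.8% and 36.4% in WT and 62.1% and 66.7% in KO at 2 h. Coverage was thus lower at 2 h than at 0 h in both genotypes, without overlap. The region was picked from 1358 for its strength, and its genotype values are given without a test.

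Of the other 4 regions named for calls in all 2 h libraries and none at 6 h, 3 lay on low background. At chr3:79493570-79494725 (1156 bp) the fold was 7.77 and 8.56 in WT and 7.5 and 6.87 in KO at 0 h, and 7.36 and 6.77 in WT and 5.80 and 5.50 in KO at 2 h. At chr19:58428383-58428909 it was 7.16 and 8.33 in WT and 9.71 and 7.01 in KO at 0 h, and 7.91 and 8.29 in WT and 9.33 and 8.41 in KO at 2 h. At chr6:86569934-86570465 it was 8.46 and 5.13 in WT and 10.1 and 7.83 in KO at 0 h, and 9.43 and 6.02 in WT and 7.83 and 6.34 in KO at 2 h. On chromosome 3 the 2 h folds were below the 0 h folds within each genotype. Its summit coverage relative to always-open regions was 72% and 74% in WT and 54.8% and 51.5% in KO at 0 h, and 50% and 45.5% in WT and 36.2% and 36.7% in KO at 2 h, without overlap. On chromosome 19 fold and coverage of 0 h and 2 h overlapped within each genotype. On chromosome 6 both overlapped in WT, while in KO the coverage was 64.3% and 54.5% at 0 h and 51.7% and 43.3% at 2 h, without overlap. The fifth, chr2:102812980-102813642, had 3 calls at 0 h, a fold of 4.12 ± 0.165 (SD, n = 3) and a local background 6.14 times the lowest.

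**Figure D5:**
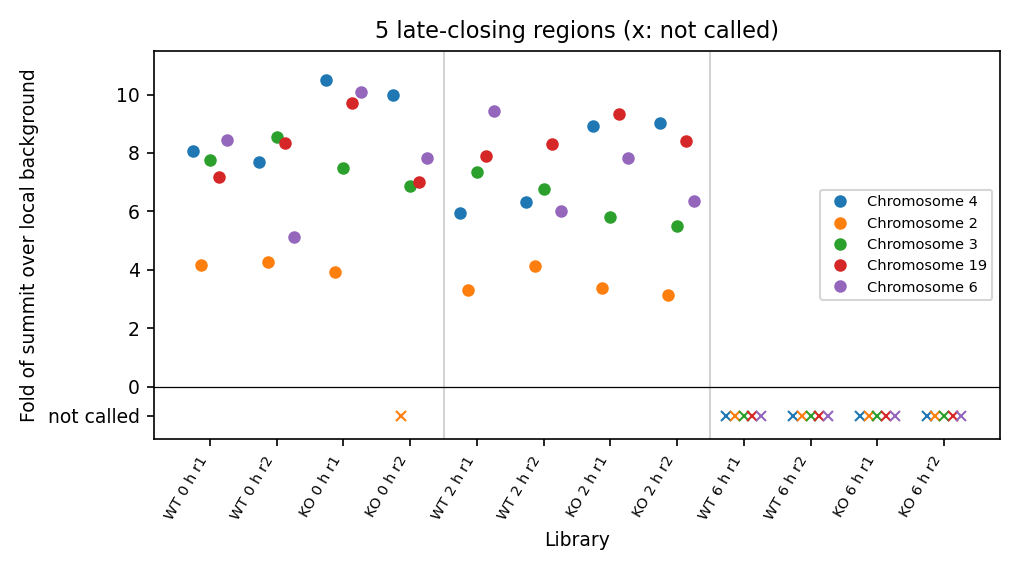
Fold of the summit over local background in each library for the 5 strongest regions called in all 4 libraries at 2 h and none at 6 h, with crosses for libraries that did not call the region. All 5 were called in every 2 h library, and the region on chromosome 4 was higher in KO than in WT at 0 h and 2 h.

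Regions with few calls at 2 h were weaker. The 5 strongest regions with at most 1 call at 2 h had mean 0 h percentiles of 30.7 to 36 and folds of 6.28 to 6.68, and all 5 lacked KO 0 h replicate 2. At chr5:62965681-62966046 the fold was 8.05 and 5.13 in WT and 6.85 in KO replicate 1 at 0 h, 4.21 in WT replicate 1 at 2 h, and no 6 h library called it. No 6 h library called chr3:78875539-78875870 either, whereas the other 3 were called in 1 library at 6 h. At chr2:36109949-36110330 the fold was 5.92 and 5.7 in WT at 0 h and 5.72 in WT replicate 1 at 6 h, with coverage of 38% and 38% at 0 h and 36.4% at 6 h, so that library showed no loss. KO replicate 1 called chr1:56157006-56157381 at 6 h with a fold of 4.83, against 6.49 in KO replicate 1 at 0 h, and chr14:72792806-72793241 with 4.37, against 5.41. Of regions called at 2 h only in WT, the strongest was chr16:55811903-55812295, with folds of 3.04 and 3.28 at 2 h. Its local background rose from 5.68 and 5.32 reads in WT at 0 h to 15.1 and 14.2 at 2 h. Of those called at 2 h only in KO, the strongest was chr1:97389502-97390024, with folds of 5.01 and 5.93. It had been called in both WT libraries at 0 h, at 8.05 and 7.42.

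Closed regions mostly lay singly. The median distance to the next closed region was 306 kb, and 188 (13.8%) lay within 50 kb of one, against 12.4% of retained regions. Joining neighbours at most 50 kb apart left 1170 single regions, 82 pairs and 8 runs of 3. One run of 3 spanned chr17:71146276-71203179, with a mean 0 h percentile of 36.1 and 4 calls at 2 h for each region, and it enclosed 7 retained and 2 opened regions. The share of regions with 3 or 4 calls at 0 h that were closed ranged from 2.03% on chromosome 7 to 3.16% on chromosome 19. Closed regions lay a median of 7.5 kb from an always-open region, and 37.7% were within 5 kb of one, against 29.9% of retained and 29.0% of opened regions. An opened region lay within 5 kb of 217 closed regions (16%), against 12.4% of retained regions. Both distances differed with local background. In the 403 closed regions with over 2 times the lowest, the medians to an always-open and an opened region were 2.22 and 19.8 kb. In the other 955 they were 13.2 and 34.4 kb, against 8.58 and 26.5 kb in all retained regions. For these distances, retained and opened regions were not split by local background. The summit moved by a median of 29.7 bp between 0 h and 2 h in the 1311 closed regions called at 2 h, and by 22.8 bp in retained regions.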

How the data were processed

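The deposited data were 12 peak lists, 1 per library, made by the authors with Bowtie2 2.1.0, Picard and MACS2 on mm9, per the submitters' processing notes. The sources used here do not state alignment settings, duplicate removal, transposase offset or peak threshold. Each deposited list gives per peak a score (10 times −log10 q, truncated), the fold of the summit over local background as a ratio, −log10 p and −log10 q as MACS2 wrote them, all by the authors. No totals of reads were used. Summit and background reads were recovered from fold and p by a Poisson tail and matched p within 0.001 for 100% of 886143 peaks; the depths of libraries are compared through the lowest background so recovered. Counts and thresholds cover 12 libraries in 6 groups of 2.

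Regions were chained with Python 3.11.15, numpy 2.4.6, pandas 2.3.3 and scipy 1.17.1, and plots used matplotlib 3.10.9. The scripts were tested on simulated data. Genotype was tested by an exact permutation test of closed regions called per library, within times. The members, lists and named-region rule were chosen with earlier results of these data known. Named regions were the 10 strongest at 0 h, the 5 strongest late and early ones, and the 3 strongest called at 2 h in 1 genotype only. Gene lists, cell type markers and motifs were not used here, as they need mm9 annotation or sequence. Alternatives were a 100 bp overlap, summits within 100 bp, −log10 q of at least 5, equal list length, thinning, a 4-to-0 rule, leaving out each library and the replicate block. Leaving out regions of high local background, leaving out the 2 libraries of extreme depth, and the scoring of regions chosen in 1 genotype in the other, deposited and thinned, were chosen after seeing the data.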

Additional observations from a re-analysis of the deposited data

Results flagged for a closer look

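Among 0 h libraries, KO replicate 2 stood far from the others, with 781 closed regions called against 1204 to 1256. Its lowest background was 1.43 reads, the lowest of the 12 libraries, and its part in that count was not tested. At chr11:77794064-77794562, one of the 10 strongest closed regions, WT 2 h replicate 2 had a fold of 4.48 against 3.43 to 3.52 in the other 2 h libraries. Of 33 groups of 4 libraries checked, these 2 stood apart, and chance marks about 1 in 20.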

How the results depend on the processing

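The count of closed regions was 1363 with a 100 bp overlap, 1307 with −log10 q of at least 5, 1875 after thinning and 955 without high local background, each within 1.5 times 1358. It was 2058 with summits within 100 bp, 4614 at equal list length and 141 under the 4-to-0 rule, and 512 to 2508 when each library was left out. Opened regions numbered 6028 at equal list length, 6198 under the 0-to-4 rule and 10007 to 19094 when each library was left out. The share called per 2 h library was 75.1%, and 85.6% under the 4-to-0 rule. KO minus WT was -142 regions at equal list length (exact permutation p = 0.00926) and -196 to 67.6 when each library was left out, with p between 0.222 and 0.963. The values without WT 0 h replicate 1 (28.0), WT 0 h replicate 2 (25.4), WT 2 h replicate 1 (3.97), KO 6 h replicate 1 (9.57) and KO 6 h replicate 2 (67.6) turned its sign. Same-numbered WT and KO libraries of a time did not deviate together (correlations -0.00221, -0.0115 and -0.0102 at 0, 2 and 6 h). Pairing across times within a genotype was not examined, so it stays unknown whether the numbers pair libraries. With the replicate block the difference was -60.7 (exact permutation p = 0.625). All p-values in this paragraph include 0 h and 6 h calls that chose the regions, so no genotype effect is read from them. Fewer libraries make the 3-call rule stricter at 0 h and the 1-call rule looser at 6 h, which sets the direction of the counts without a library. A region without a call has no deposited value, so the size of a loss is bounded only by the calling limit.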
